A study of Mus musculus with 20 samples.

Results

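The comparison described here set mouse blastocysts that had received the higher of 2 doses of a let-7f-5p mimic as zygotes, the group labelled 2x Str - let7f, against blastocysts injected with vehicle. Its members were chosen by the labels alone: 5 pools of 2x Str - let7f (replicates 1 to 5) and 7 pools of vehicle (replicates 1, 2, 3, 5, 6, 7 and 8), which are 12 of the 20 pools of the series. The other 8 pools carry the label Str - let7f, a dose that the labels tie to levels seen in sperm after stress and that was doubled to reach 2x Str - let7f. Of the 16014 named genes in the table, 15068 had a normalized count of at least 10 in at least 5 of the 20 libraries and were tested, and 946 did not reach that minimum.

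All embryos were wild type (WT), of the strain F1 C57BL/6Jx129S1/SvlmJ. The mimic was dissolved in nuclease-free water and injected at the zygote stage, vehicle pools received the same water, and all embryos were grown in KSOM medium at 37 °C under 5% CO2 and 5% O2. Each library came from 10 pooled embryos. Whether pools differ in mother, injection day or library batch is not labelled, and p-values therefore measure only how these pools vary, which may be technical. No group received an unrelated mimic, so effects of the let-7f sequence and of an injected small RNA as such cannot be told apart. Depth ran from 1.94 to 27.2 M reads in 2x Str - let7f (median 5.04) and from 3.30 to 46.6 M in vehicle (median 10.5), and mean log10 depth differed by -0.168 between them (exact permutation test, two-sided p = 0.545).

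MicroRNAs of the let-7 family pair through a short seed near their 5′ end with sites in the 3′ untranslated regions (UTRs) of messenger RNAs, which lowers the stability and translation of those messengers. Pluripotent cells keep mature let-7 low through LIN28 proteins, and let-7 in turn represses Lin28a, Trim71 and other genes of the early embryo. A blastocyst holds an outer epithelium, the trophectoderm, around an inner cell mass whose cells become epiblast, the source of the embryo proper, or primitive endoderm, which lines the cavity, secretes laminins and collagen IV into a basement membrane and later forms yolk sac.

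The injected strand is shown because every site count below rests on its seed, bases 2 to 8, in capitals.
let-7f mimic: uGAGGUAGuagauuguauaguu
In RefSeq (build GRCm38.p6) the same bases are mature mmu-let-7f-5p at 2 loci, chr13:48537889-48537910 on the minus strand and chrX:151912353-151912374 on the plus strand, and 11 of 1679 mature names share the seed. The 8-base match to this seed, CTACCTCA, stands 5 times in a row in the 3′ UTR of Trim6, each copy starting 45 bases after the one before. The windows below, from GENCODE M21 on GRCm38, are 3′ UTR sequence of 3 genes that fell, with the match in capitals.
Trim6 site 1: tactgattatagatCTACCTCA
Trim6 site 2: tactgattatagctCTACCTCA
Trim6 site 3: tactgattatagatCTACCTCA
Trim6 site 4: tactgattatagatCTACCTCA
Trim6 site 5: tactgattatagctCTACCTCA
Lin28a site 1: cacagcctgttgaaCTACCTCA
Lin28a site 2: agatcgccacaaacCTACCTCA
Trim71 site 1: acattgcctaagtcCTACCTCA
Trim71 site 2: gtgataatttctatCTACCTCA
Trim71 site 3: ttagtatggattttCTACCTCA
Trim71 site 4: tggcaaaaagttgtCTACCTCA
The first and last Trim6 windows lie at chr7:104233459-104233480 and chr7:104233639-104233660 on the plus strand. Those of Lin28a lie at chr4:134005189-134005210 and chr4:134004551-134004572 on the minus strand. Those of Trim71 run from chr9:114512472-114512493 to chr9:114509021-114509042, also on the minus strand.

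Of the 15068 genes, 285 (1.89%) differed between 2x Str - let7f and vehicle at an adjusted p under 0.05 (limma on log2(normalized count + 1), Benjamini-Hochberg, two-sided). They were 185 genes that rose (1.23% of those tested) and 100 that fell (0.664%), and 122 and 64 of them changed by more than 2-fold. The median log2 fold change over all genes was -0.01. All 5 mimic pools lay below all 7 vehicle pools for 134 genes (0.889%) and above them for 205 (1.36%), and 63 of the genes that fell and 127 of those that rose were among these. The calls depended on which libraries were used. In the 8 libraries of both groups with over 5 M reads, 50 genes rose and 18 fell. That subset also has fewer pools, so depth and the number of pools cannot be told apart. Leaving out 1 library at a time gave 96 (without 2x replicate 5) to 173 (without vehicle replicate 5) that rose. It gave 47 (without 2x replicate 4) to 111 (without 2x replicate 1) that fell.

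**Figure D1:**
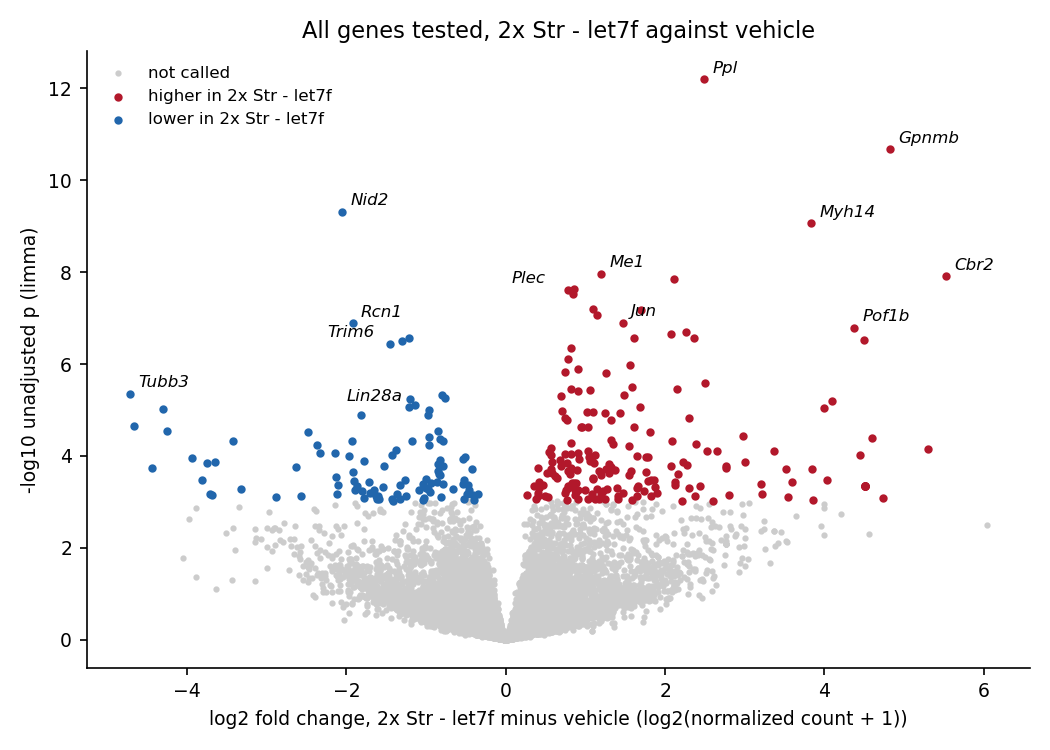
Each point is 1 of the 15068 genes tested; the horizontal axis is the log2 fold change of 2x Str - let7f over vehicle on log2(normalized count + 1) and the vertical axis is -log10 of the unadjusted limma p. The 185 genes that rose (red) include Ppl, Gpnmb, Myh14 and Cbr2, and the 100 that fell (blue) include Nid2, Rcn1, Trim6 and Tubb3.

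The smallest adjusted p-values among rising genes belonged to Ppl, Gpnmb and Myh14, and among falling genes to Nid2 and Rcn1. Ppl encodes periplakin, a cytolinker of the epithelial cornified envelope and desmosomes. Its normalized count was 1672, 1637, 1405, 1487 and 1601 in 2x Str - let7f replicates 1 to 5, the order used for every such set of values, against a lowest, median and highest of 184, 266 and 390.4 in vehicle. Every mimic pool was far above every vehicle pool, by a log2 fold change of 2.49 ± 0.17 (SE) (adjusted p = 9.38e-09). Gpnmb, a transmembrane glycoprotein of lysosomes and melanosomes, stood at 892, 515, 443, 779.8 and 756 against 9.25, 19.5 and 84.4 in vehicle. Gpnmb rose by 4.82 ± 0.40 (SE) in log2 (adjusted p = 1.56e-07). Myh14, a nonmuscle myosin II heavy chain, stood at 710.0, 381, 577, 671 and 495 against 19.0, 34.3 and 82.5. Myh14 rose by 3.83 ± 0.39 (SE) in log2 (adjusted p = 3.25e-06). For both genes the groups were far apart, with no vehicle pool near the lowest mimic pool.

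Of 66 genes listed as known let-7 targets, 62 were tested, 7 fell and none rose, beside 0.664% of all genes that fell, and the median log2 fold change was -0.18 beside -0.01 over all genes. This list and those that follow were chosen with earlier results of these data known, so their counts and medians are a description. The count that fell was 4 without 2x replicate 3, 4 or 5 or vehicle replicate 1, 5 to 7 without any other library, and 0 in the libraries over 5 M reads. Of the 7, Lin28a, Trim71, Nr6a1 and Igf2bp1 hold the 8-base match in the annotated 3′ UTR, Arid3b and Mycn hold only a 7-base match (CTACCTC or TACCTCA), and Zfp36l1 holds neither. Lin28a, which binds let-7 precursors and holds back their maturation, stood at 1252, 556, 521, 584 and 701 in the mimic pools and at 1378, 1475 and 1969.7 in vehicle. All mimic pools were below all vehicle pools, with replicate 1 much the nearest to them. Lin28a fell by 1.21 ± 0.21 (SE) in log2 (adjusted p = 0.00287). Trim71, a repressor of messengers in the early embryo that is also a ubiquitin ligase, stood at 1374, 1338, 771, 929.6 and 975 against 1664, 1799 and 2076. Trim71 fell by 0.79 ± 0.16 (SE) in log2 (adjusted p = 0.00923). Its 5 mimic values formed a higher pair, replicates 1 and 2, and a lower set of 3, all under the vehicle range. Arid3b, an ARID-domain DNA-binding protein, stood at 152, 239, 181, 93.0 and 235 against 322, 395 and 468. Arid3b fell by 1.18 ± 0.24 (SE) in log2 (adjusted p = 0.00923), with no overlap. Zfp36l1, which binds AU-rich elements and speeds messenger decay, stood at 466, 339.8, 304, 362 and 281 against 530.1, 603 and 776. Zfp36l1 fell by 0.85 ± 0.16 (SE) in log2 (adjusted p = 0.00637), also with no overlap. The calls of these 4 genes held on leaving out each of the 12 libraries in turn, but none had an adjusted p under 0.05 in the libraries over 5 M reads, where it ran from 0.0567 for Trim71 to 0.106 for Arid3b.

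The other 3 targets that fell held less firmly. Mycn, the MYC-family transcription factor, stood at 1280.1, 703, 339, 429 and 478 against 814, 1455 and 1849.7. Mycn fell by 1.26 ± 0.30 (SE) in log2 (adjusted p = 0.0292), with replicate 1 inside the vehicle range. Nr6a1, the germ cell nuclear factor, stood at 160.0, 293, 157, 72.3 and 213 against 239, 375 and 1042. Nr6a1 fell by 1.54 ± 0.38 (SE) in log2 (adjusted p = 0.0341), with replicate 2 inside it. Igf2bp1, a messenger RNA-binding protein, stood at 3958, 3094, 2869.7, 2567 and 2422 against 3553, 4039 and 4395. Igf2bp1 fell by 0.46 ± 0.11 (SE) in log2 (adjusted p = 0.0372), with replicate 1 inside it. The call of Mycn was lost without 2x replicates 3, 4 and 5 or vehicle replicates 1, 2 and 3 (adjusted p up to 0.0983, without 2x replicate 3). That of Nr6a1 was lost without any 1 library other than 2x replicate 2 or vehicle replicates 2, 3, 5 and 6 (adjusted p up to 0.128, without 2x replicate 4). That of Igf2bp1 was lost without any 1 library other than 2x replicate 1 or vehicle replicate 6 (adjusted p up to 0.122, without 2x replicate 4). Targets that did not pass included the chromatin protein Hmga2, at 1494, 2291, 2157, 2438 and 2336 against 1566, 2207 and 2567, whose log2 fold change of 0.02 had a 95% interval of -0.29 to 0.32. Igf2bp3 differed by 0.21 (interval -0.43 to 0.85), Lin28b by -0.71 (-1.64 to 0.23) and Arid3a by -0.45 (-1.41 to 0.52), so these intervals span both directions.

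**Figure D2:**
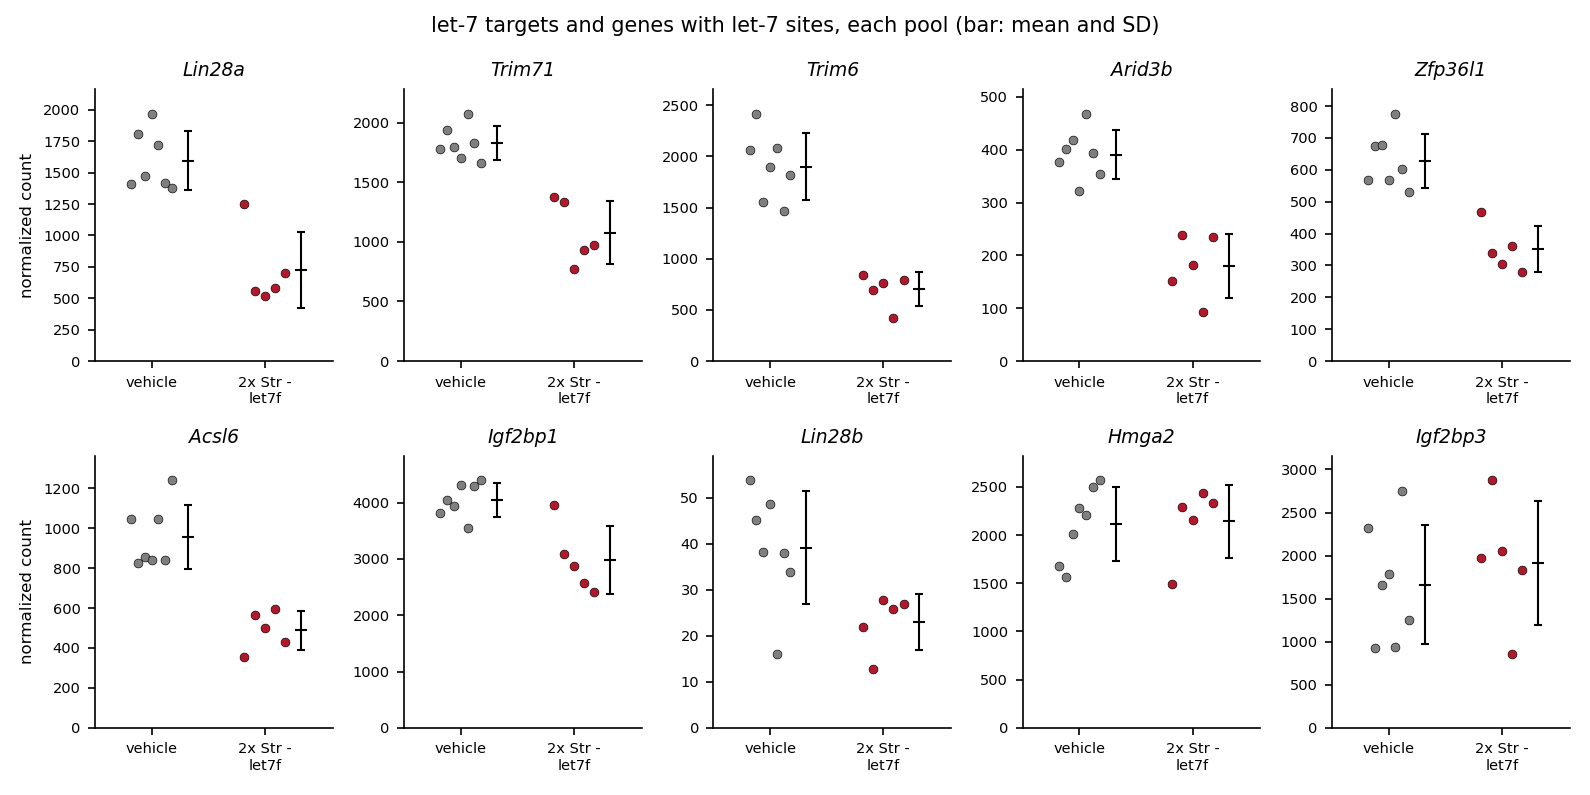
Each point is the normalized count of 1 pool (vertical axes from 0) of vehicle (gray, 7 pools) or 2x Str - let7f (red, 5 pools), and bars give mean and SD. Pools do not overlap for Lin28a, Trim71, Trim6, Arid3b, Zfp36l1 and Acsl6, overlap by 1 mimic pool for Igf2bp1, and lie among each other for Hmga2 and Igf2bp3.

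Falls were counted by site number over the 13425 tested genes with an annotated 3′ UTR. The 8-base match was present in 592 of them (4.41%), in 7 of the 99 genes that fell (7.07%) and in 4 of the 169 that rose (2.37%). Of the 33 genes with 2 or more copies, 6 fell (18.2%) and 1 rose, and of the 559 with 1 copy, 1 fell (0.179%) and 3 rose. The 6 were Trim6 with 5 copies, Trim71 with 4, Nr6a1 and Igf2bp1 with 3, and Lin28a and Zfp473 with 2, and all but Trim6 and Zfp473 were on the list of known targets. The 28 genes with 2 or more copies that are not on that list had a median log2 fold change of -0.03, and 15 of them lay below 0. Median UTR length was 3475 bases with 2 or more copies and 1142 bases with no site, so copy number and UTR length move together.

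Trim6, a ubiquitin ligase of the tripartite motif family and the gene of the tandem sites shown above, stood at 842, 695, 765, 423 and 794 against 1463, 1899 and 2417. The highest mimic pool was well below the lowest vehicle pool. Trim6 fell by 1.45 ± 0.21 (SE) in log2 (adjusted p = 0.000225), a call held in the libraries over 5 M reads (adjusted p = 0.0416) and without each library in turn. Acsl6, a long-chain acyl-CoA synthetase and the only faller with a single copy, stood at 356, 564, 498, 594 and 431 against 825, 853 and 1239. Acsl6 fell by 0.98 ± 0.18 (SE) in log2 (adjusted p = 0.00348), with no overlap. Zfp473, a zinc finger protein, stood at 68.0, 59.2, 41.8, 124 and 67.0 against 112, 186 and 294. Zfp473 fell by 1.43 ± 0.37 (SE) in log2 (adjusted p = 0.048), with replicate 4 inside the vehicle range and a call lost without any 1 library other than 2x replicate 4 or vehicle replicates 5 and 7 (adjusted p up to 0.147, without 2x replicate 3). Gusb, the lysosomal beta-glucuronidase, was the gene with 2 copies that rose, at 462, 489, 528, 537 and 478 against 158, 252 and 323. Gusb rose by 1.05 ± 0.23 (SE) in log2 (adjusted p = 0.017), with no overlap. Mcf2l, with 7 copies the gene richest in the match, was near the detection limit, at 12.0, 0, 7.77, 36.2 and 11.0 against 0, 13.4 and 19.8. A site is a match of letters in a UTR of another build than the authors used, not a measured binding site.

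The primitive endoderm list fell the most in number of any list: of 29 markers tested, 11 fell and none rose, beside 0.664% of all genes that fell, with a median log2 fold change of -0.90. Like the others, this list was chosen with earlier results of these data known. Summed over the list, reads per M were 8705, 7531, 7973, 7095 and 7286 in the mimic pools and 10403, 11317 and 12544 at the lowest, median and highest of vehicle. Every mimic pool was below every vehicle pool. In bulk pools, fewer cells of a type and less RNA per cell cannot be told apart. Counts of this list that fell ran from 7 (without 2x replicate 4 or 5) to 14 (without 2x replicate 1) on leaving out each library and were 7 by edgeR and 4 in the libraries over 5 M reads.

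Nid2, the basement membrane protein nidogen-2, stood at 400.0, 368, 251, 274 and 291 against 961, 1299.6 and 1749. All mimic pools were under the lowest vehicle pool by more than the whole mimic range. Nid2 fell by 2.05 ± 0.20 (SE) in log2 (adjusted p = 2.44e-06). Cubn, the endocytic receptor cubilin, stood at 1074, 994, 1347, 1178 and 782 against 1763, 2671 and 3868. Cubn fell by 1.31 ± 0.18 (SE) in log2 (adjusted p = 0.000202). Lamb1, the laminin beta-1 chain, stood at 6234, 5073, 5178, 2680.4 and 3682 against 7480.2, 9861 and 11766. Lamb1 fell by 1.14 ± 0.20 (SE) in log2 (adjusted p = 0.00267). Neither Cubn nor Lamb1 overlapped between the groups. Sparc, a collagen-binding matrix protein, stood at 1756, 1493, 1555, 806 and 1203 against 2408, 2889 and 3771. Sparc fell by 1.20 ± 0.21 (SE) in log2 (adjusted p = 0.00206). Foxq1, a forkhead factor, stood at 294, 121, 128, 51.6 and 96.0 against 320.1, 444 and 554. Foxq1 fell by 1.82 ± 0.33 (SE) in log2 (adjusted p = 0.00348), again with every mimic pool below vehicle and with replicate 1 the nearest.

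Of 2 further laminin chains, Lamc1 fell by 0.97 ± 0.19 (SE) in log2 (adjusted p = 0.00836), and Lama1 fell by 1.42 ± 0.30 (SE) in log2 (adjusted p = 0.0143). For both, replicate 1 lay inside the vehicle range and the other mimic pools below it. The call of Lama1 was lost without 2x replicate 4 (adjusted p = 0.0525). Amn, the partner that anchors cubilin in the membrane, stood at 0, 0, 11.5, 10.3 and 1.42 against 33.9, 64.7 and 197 (adjusted p = 0.0204), with a call lost without 2x replicates 1, 2 and 5 (adjusted p up to 0.0623, without 2x replicate 2). Gata4, a GATA factor of the endoderm, stood at 618, 651, 581, 149.8 and 514 against 835, 1004 and 1310.3. Gata4 fell by 1.25 ± 0.32 (SE) in log2 (adjusted p = 0.0437). Col4a1, a collagen IV chain, stood at 7036, 2659, 4357, 3161 and 4618 against 5823, 6907 and 10142. Col4a1 fell by 0.81 ± 0.21 (SE) in log2 (adjusted p = 0.0445). Gata4 did not overlap between the groups, while Col4a1 of replicate 1 sat inside the vehicle range. Both calls stood close to the threshold. That of Gata4 was lost without any 1 library other than 2x replicates 1 and 2 (adjusted p up to 0.135, without 2x replicate 4). For Col4a1 it was lost without any 1 library other than 2x replicate 1 or vehicle replicate 7 (adjusted p up to 0.145, without 2x replicate 2).

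Markers that define the lineage early did not pass the test. Gata6, the GATA factor that starts the primitive endoderm program, stood at 2878, 2700.0, 2668, 5464 and 2768 against 1753, 2412 and 3315, and its log2 fold change of 0.37 had a 95% interval of -0.06 to 0.79. Pdgfra, the receptor by which these cells are usually recognised, stood at 1430.1, 2386, 2080.0, 1704 and 1901 against 1302, 2173 and 2655, a difference of -0.17 (-0.57 to 0.24). Both genes overlapped between the groups, and replicate 4 held the highest Gata6 of the 12 pools and the lowest Gata4. Sox17 stood at 520.0, 286, 326, 315 and 321 against 341, 418 and 497, with replicate 1 above and the other 4 mimic pools below all vehicle pools (-0.26, adjusted p = 0.66). Sox7, a factor of more mature primitive endoderm, stood at 154, 97.8, 18.9, 41.3 and 33.7 against 214, 266 and 452, below vehicle in all 5 pools but short of the threshold (-2.39, adjusted p = 0.0657).

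**Figure D3:**
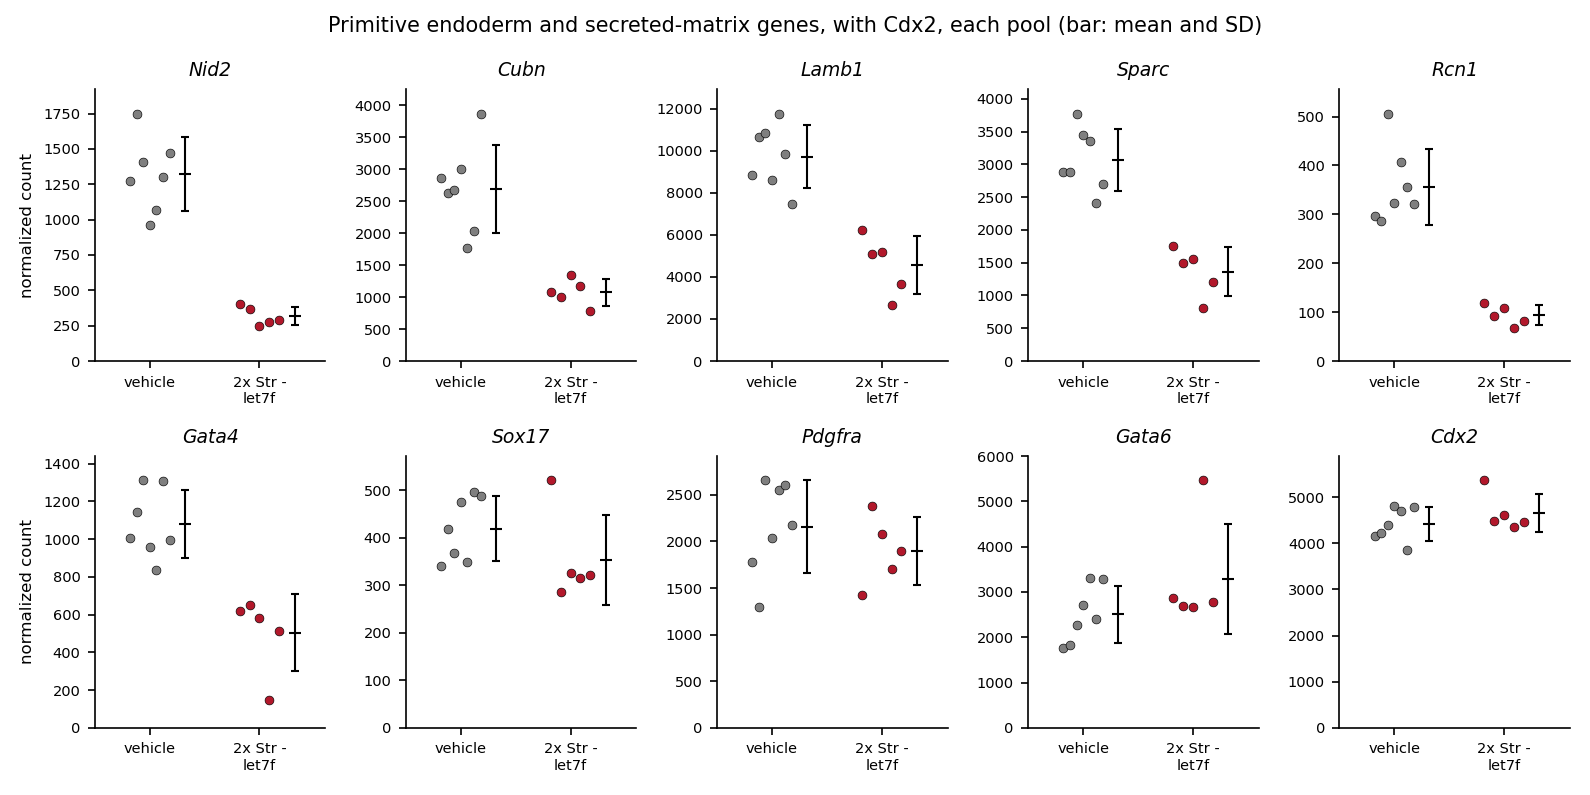
Each point is the normalized count of 1 pool (vertical axes from 0) of vehicle (gray, 7 pools) or 2x Str - let7f (red, 5 pools), and bars give mean and SD. Nid2, Cubn, Lamb1, Sparc, Rcn1 and Gata4 of the mimic pools lie below all vehicle pools, Sox17 does so in 4 of 5 pools, and Pdgfra, Gata6 and the trophectoderm factor Cdx2 overlap between the groups.

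Of the 29 tested genes for basement membrane and the secretory lumen, a list that shares members with the one before, 9 fell and none rose, beside 0.664% of all genes that fell, with a median of -0.66. Rcn1, reticulocalbin-1 of the endoplasmic reticulum, stood at 118, 92.7, 108, 67.1 and 81.1 against 286, 322 and 506. Rcn1 fell by 1.92 ± 0.26 (SE) in log2 (adjusted p = 0.00013). Ckap4, a membrane protein of the reticulum sheets, stood at 984, 528, 572, 459.6 and 476 against 1205, 1308 and 1571. Ckap4 fell by 1.22 ± 0.17 (SE) in log2 (adjusted p = 0.000199). Hspg2, the heparan sulfate proteoglycan perlecan, stood at 3904, 2489, 1447, 909 and 1301 against 4273, 6482 and 11226. Hspg2 fell by 1.93 ± 0.39 (SE) in log2 (adjusted p = 0.00923). None of the 3 overlapped between the groups, and in Ckap4 and Hspg2 replicate 1 was again the highest mimic pool. Golm2, a Golgi membrane protein outside the list, stood at 1154, 1313, 1143, 929.6 and 1253 against 1479.8, 1925 and 2399. Golm2 fell by 0.80 ± 0.13 (SE) in log2 (adjusted p = 0.00184).

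Of 36 trophectoderm epithelium genes, a list of junction, keratin, envelope and transport genes, 6 rose, 1 fell and the others did not pass, beside 1.23% of all genes that rose. The list's median was 0.11, with 22 members above 0 and 14 below. The count that rose was 3 without 2x replicate 2, 3 or 4 or vehicle replicate 2, 3, 6, 7 or 8, 4 to 5 without any other library, and 3 in the libraries over 5 M reads. Beside Ppl, the plakin Eppk1 (epiplakin) stood at 730.0, 476, 736, 1152 and 771 against 129, 173 and 223. Eppk1 rose by 2.11 ± 0.25 (SE) in log2 (adjusted p = 3.07e-05). Evpl (envoplakin), which pairs with periplakin, stood at 162, 167, 204, 253 and 182 against 12.0, 43.1 and 77.0. Evpl rose by 2.39 ± 0.48 (SE) in log2 (adjusted p = 0.00989). Plec (plectin), a plakin outside the list that links intermediate filaments to hemidesmosomes, stood at 22239, 18753, 20747, 21717 and 23029 against 10002, 12564 and 13256. Plec rose by 0.86 ± 0.10 (SE) in log2 (adjusted p = 4.1e-05). All 5 mimic pools exceeded all vehicle pools for each of these 4 plakins, and their calls held without each of the 12 libraries.

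The fifth plakin, Dsp (desmoplakin), rose by 0.26 ± 0.07 (SE) (adjusted p = 0.0435), from a vehicle range of 9836 to 10939 to 12090.2 to 12867, and this small difference lost its call without any 1 of the 12 libraries (adjusted p up to 0.101, without 2x replicate 5). Jup (plakoglobin), the desmosomal catenin, rose by 0.41 ± 0.10 (SE) (adjusted p = 0.0411), a call lost without any 1 library other than 2x replicate 1 or vehicle replicate 5 (adjusted p up to 0.126, without 2x replicate 2). Krt19, a simple-epithelium keratin, stood at 1308, 772, 366, 320.2 and 273 against 78.7, 131 and 492. Krt19 rose by 1.65 ± 0.42 (SE) in log2 (adjusted p = 0.0445). Its replicates 1 and 2 were above all vehicle pools and the other 3 inside the vehicle range, and the call was lost without any 1 library other than 2x replicate 5 or vehicle replicate 1 (adjusted p up to 0.127, without 2x replicate 1). Podxl, the apical sialomucin podocalyxin, was the member that fell, at 118, 87.5, 51.4, 25.8 and 56.7 against 193, 344 and 428. Podxl fell by 2.37 ± 0.48 (SE) in log2 (adjusted p = 0.0103), with no overlap.

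Pof1b, Dmkn, Ceacam1 and Fat1, which are not on this list, also rose. Pof1b, an actin-binding junction protein, stood at 92.0, 157, 202, 201 and 161 against 1.19, 5.67 and 37.0. Pof1b rose by 4.37 ± 0.59 (SE) in log2 (adjusted p = 0.000151). Too few vehicle pools reached the minimum count, so Pof1b could be tested only with the help of pools that received the mimic. The call of Pof1b is therefore a description. Dmkn, the keratinocyte secreted protein dermokine, stood at 2382, 2286, 1936, 2004 and 1984 against 372, 619.5 and 1260.1. Dmkn rose by 1.70 ± 0.22 (SE) in log2 (adjusted p = 8.45e-05). For both the groups were apart, and for Pof1b the lowest mimic pool was well above the highest vehicle pool. Ceacam1, an adhesion molecule of epithelial surfaces, rose by 2.26 ± 0.31 (SE) (adjusted p = 0.000176). Fat1, a giant protocadherin, rose by 0.78 ± 0.09 (SE) (adjusted p = 4.1e-05), and both were above all vehicle pools in 5 of 5 mimic pools. Fat1 was the only one of 24 Hippo and YAP genes called, beside 1.23% of all genes that rose. Cdx2, the transcription factor of trophectoderm fate, was at 5362, 4484, 4624, 4359 and 4464 against 3859, 4391 and 4806 (0.08, interval -0.11 to 0.26), Gata3 differed by -0.03 (-0.27 to 0.20) and Eomes by -0.22 (-0.79 to 0.35). None of the 16 trophectoderm transcription factors tested was called by limma, with a smallest adjusted p of 0.173 and a list median of 0.00.

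Of 32 genes under NRF2 control or in glutathione metabolism, 8 rose and none fell, beside 1.23% of all genes that rose, with a median of 0.22. The count that rose was 5 without 2x replicate 2, 3, 4 or 5, 6 to 7 without any other library, and 3 in the libraries over 5 M reads. NRF2 is the transcription factor that switches on antioxidant enzymes, and several of its targets supply or spend NADPH. Me1, malic enzyme of the cytosol and a source of NADPH, stood at 2260.1, 2314, 2506, 1932 and 2462 against 770.3, 992 and 1172. Me1 rose by 1.20 ± 0.14 (SE) in log2 (adjusted p = 3.05e-05). Cbr2, a carbonyl reductase, stood at 52.0, 69.5, 33.7, 186 and 56.7 against 0, 0 and 3.57 (adjusted p = 3.05e-05), so that it had 340 reads in the 5 mimic pools and 11 in the 7 vehicle pools. No vehicle pool reached 10, so Cbr2 could pass the minimum for testing only through pools that received the mimic. Its call, and its place among the 8, are therefore a description. Gsto1, a glutathione transferase, stood at 2864, 2842, 3549.8, 2376 and 3275 against 1407, 1714 and 1967. Gsto1 rose by 0.82 ± 0.13 (SE) in log2 (adjusted p = 0.00157). Txnrd1, thioredoxin reductase, stood at 1164, 1531, 1411, 1869.6 and 1810.3 against 774, 926 and 1125. Txnrd1 rose by 0.74 ± 0.14 (SE) in log2 (adjusted p = 0.00393). All 4 were above vehicle in every mimic pool, and their calls held without each library, with the limit given for Cbr2.

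The other 4 were less firm. Srxn1 (sulfiredoxin) rose by 2.28 ± 0.51 (SE) (adjusted p = 0.0191) and lost its call without 2x replicates 4 and 5 (adjusted p up to 0.0569, without 2x replicate 5). Abcc1, a glutathione conjugate exporter, rose by 0.82 ± 0.18 (SE) (adjusted p = 0.0204) and lost it without 2x replicates 2 and 3 (adjusted p up to 0.0778, without 2x replicate 3). Ephx1, an epoxide hydrolase, rose by 1.40 ± 0.37 (SE) (adjusted p = 0.0476) and lost it without any 1 library other than 2x replicate 1 or vehicle replicate 7 (adjusted p up to 0.156, without 2x replicate 3). Gclc, the catalytic subunit of the first step of glutathione synthesis, rose by 1.04 ± 0.27 (SE) (adjusted p = 0.0477) and lost it without any 1 library other than vehicle replicates 1 and 5 (adjusted p up to 0.118, without 2x replicate 2). Srxn1 and Gclc were above all vehicle pools in 5 of 5 mimic pools, Abcc1 in 4 and Ephx1 in 3. Ckb, the brain-type creatine kinase that buffers ATP, stood at 6994, 5907, 4922, 5314 and 6097 against 2873, 3298 and 3553. Ckb rose by 0.84 ± 0.10 (SE) in log2 (adjusted p = 4.42e-05), with no overlap. Me1 and Ckb were the 2 of 20 genes of creatine and NADPH supply that rose, beside 1.23% of all genes.

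Among 28 p53 targets, 2 rose and none fell, beside 1.23% of all genes that rose, with a median of 0.25. The count that rose was 1 without 2x replicate 3, 4 or 5, 4 without vehicle replicate 5, and 1 in the libraries over 5 M reads. Ccng1 (cyclin G1) stood at 2148, 2419, 2826, 2794 and 2504 against 872, 1187 and 1590.1. Ccng1 rose by 1.10 ± 0.14 (SE) in log2 (adjusted p = 8.45e-05), with no overlap. Perp, a desmosomal protein and p53 target, stood at 1230.0, 1289.5, 1327, 1591 and 1335 against 732, 940.0 and 1138. Perp rose by 0.57 ± 0.13 (SE) in log2 (adjusted p = 0.0206), with no overlap and a call lost without 2x replicates 3, 4 and 5 (adjusted p up to 0.0748, without 2x replicate 4). Cdkn1a, the cell cycle inhibitor p21, was at 534, 466, 419, 516 and 419 against 182, 273 and 392, above vehicle in all 5 pools but short of the threshold (0.77, adjusted p = 0.0613). Of 25 apoptosis genes 1 rose and none fell, beside 1.23% of all genes that rose. It was the BCL2-family effector Bak1, at 240.0, 74.6, 151, 196 and 192 against 23.4, 40.1 and 102. Bak1 rose by 1.76 ± 0.40 (SE) in log2 (adjusted p = 0.0225), with replicate 2 inside the vehicle range. Its call was lost without 2x replicates 1, 3, 4 and 5 or vehicle replicate 3 (adjusted p up to 0.0671, without 2x replicate 4).

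Of 19 immediate early genes 1 rose and none fell, beside 1.23% of all genes that rose. It was Jun, at 624, 499, 416, 646 and 361 against 145, 182 and 209.9. Jun rose by 1.47 ± 0.20 (SE) in log2 (adjusted p = 0.00013), with no overlap. Dusp1, a MAP kinase phosphatase on the same list, had all 5 mimic pools above vehicle but did not pass (1.22, adjusted p = 0.051), and replicate 2 was far above the rest at 512 against 58.9, 67.7 and 96.0. Of 20 heat shock genes 1 rose and none fell, beside the same 1.23%. It was the small chaperone Cryab, at 666, 599.7, 468, 594 and 478 against 147, 265 and 476. Cryab rose by 1.08 ± 0.24 (SE) in log2 (adjusted p = 0.017), with replicate 3 inside the vehicle range. Hspa1b, an inducible HSP70, stood at 106, 116, 173, 398 and 173 against 0, 55.6 and 77.1 without passing (2.53, adjusted p = 0.0818). None of 38 genes of the integrated stress and unfolded protein responses was called by limma (median -0.18, smallest adjusted p 0.0818). Among 28 lysosome genes Gpnmb and Ctsd rose and Ctsl fell, beside 1.23% of all genes that rose and 0.664% that fell. Ctsd, the protease cathepsin D, stood at 2680.1, 2409, 3356, 3248 and 2916 against 1563, 2093 and 2611. Ctsd rose by 0.51 ± 0.12 (SE) in log2 (adjusted p = 0.0228). Ctsl, cathepsin L, stood at 732, 1039.8, 1221, 1911 and 1539.9 against 1871, 2221 and 2448. Ctsl fell by 0.82 ± 0.16 (SE) in log2 (adjusted p = 0.00879). In each, 1 mimic pool lay inside the vehicle range, and the call of Ctsd was lost without 2x replicates 3, 4 and 5 (adjusted p up to 0.081, without 2x replicate 3).

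Tubulin genes moved in both directions. Tubb3, the beta-tubulin best known from neurons, was nearly absent from the mimic pools, at 2.00, 0, 1.11, 0 and 1.42 against 12.3, 40.7 and 165 (adjusted p = 0.0018), which is 8 reads in 5 pools against 581 in 7. Tubb5, a widely expressed beta-tubulin, stood at 5254, 4417, 3720.4, 3372 and 4158 against 6086, 6768 and 8941. Tubb5 fell by 0.77 ± 0.13 (SE) in log2 (adjusted p = 0.00202), with no overlap. Tuba1a stood at 8.00, 46.3, 94.0, 77.5 and 65.6 against 83.2, 179 and 265. Tuba1a fell by 1.91 ± 0.46 (SE) in log2 (adjusted p = 0.0307), with replicate 3 inside the vehicle range, and lost its call without 2x replicates 1 and 2 or vehicle replicates 1, 2, 3 and 6 (adjusted p up to 0.0641, without vehicle replicate 2). Tuba4a rose by 0.78 ± 0.18 (SE) (adjusted p = 0.0217) and Tubb4b by 0.35 ± 0.09 (SE) (adjusted p = 0.0339). The call of Tuba4a was lost without 2x replicates 3, 4 and 5 (adjusted p up to 0.0802, without 2x replicate 5), and that of Tubb4b without any 1 library other than vehicle replicates 1, 7 and 8 (adjusted p up to 0.0963, without 2x replicate 5). Over all 12 alpha- and beta-tubulin genes, summed reads per M were 1679.8, 1572, 1532, 1489.8 and 1686 in the mimic pools and 1741, 1934 and 1996 in vehicle, so every mimic pool was below every vehicle pool. Under trimmed-mean and total-read scaling Tubb3, Tubb5 and Tuba1a stayed lower and Tuba4a higher, and Tubb4b missed the threshold under the first (adjusted p = 0.0519).

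The remaining genes with the largest falls were of low level. Stmn2, a tubulin-binding protein of neurites, stood at 10.0, 5.15, 6.66, 10.3 and 4.96 against 33.7, 107 and 260.3. Stmn2 fell by 3.42 ± 0.69 (SE) in log2 (adjusted p = 0.00923). Car2, carbonic anhydrase 2, stood at 4.00, 5.15, 6.66, 5.16 and 10.3 against 52.4, 91.0 and 325. Car2 fell by 3.94 ± 0.85 (SE) in log2 (adjusted p = 0.0155). Brsk1, a kinase of neuronal polarity, was at 0, 0, 0, 0 and 1.06 against 10.4, 20.7 and 53.5 (adjusted p = 0.00291), 3 reads in all in the mimic pools. No 2x Str - let7f pool and too few Str - let7f pools reached 10, so Brsk1 could be tested only through the vehicle pools. Its call is therefore a description. All 5 mimic pools were below vehicle in these 3 genes. Nostrin, a trafficking protein of nitric oxide synthase, stood at 66.0, 18.0, 8.14, 0 and 11.3 against 90.0, 156 and 240.4. Nostrin fell by 3.81 ± 0.91 (SE) in log2 (adjusted p = 0.0292). Tent5a, a poly(A) polymerase, stood at 40.0, 0, 37.4, 0 and 8.86 against 48.2, 81.3 and 155. Tent5a fell by 3.65 ± 0.80 (SE) in log2 (adjusted p = 0.0171). The call of Nostrin was lost without 2x replicates 3, 4 and 5 or vehicle replicates 2, 3 and 8 (adjusted p up to 0.102, without 2x replicate 4) and that of Tent5a without 2x replicates 2 and 4 (adjusted p up to 0.0635, without 2x replicate 4). Among the largest rises, Slc4a3, an anion exchanger, stood at 64.0, 381, 623, 563 and 305 against 1.19, 15.8 and 67.8. Slc4a3 rose by 4.10 ± 0.71 (SE) in log2 (adjusted p = 0.00222), with replicate 1 inside the vehicle range. Pou3f1, a POU factor, stood at 120.0, 51.5, 41.8, 67.1 and 40.7 against 0, 1.85 and 8.32 (adjusted p = 0.000202), with no overlap. With no vehicle pool at 10, Pou3f1 could be tested only through pools that received the mimic, so its call is a description. Itpr3, a calcium channel of the endoplasmic reticulum, rose from 594 to 894 in vehicle to 1555 to 1998. Itpr3 rose by 1.14 ± 0.15 (SE) in log2 (adjusted p = 9.75e-05).

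Several multicopy families known from the 2-cell stage, when the embryonic genome switches on, and from rare 2-cell-like cells of stem cell cultures, had more summed reads in the mimic pools, while single copies rarely passed. Of 33 such genes listed, 20 were in the table and 18 were tested, of which 1 rose by limma, Usp17lc, 3 by edgeR and 9 by DESeq2. Members at or near 0 in vehicle could reach the minimum for testing only through pools that received the mimic, so these counts are a description and the median of the list is not given. The whole list summed to 157 to 218 reads per M in the mimic pools and 83.9 to 189 in vehicle, which overlapped. The Usp17l deubiquitinase family (5 genes) summed to 9.52, 27.5, 8.70, 46.0 and 14.5 reads per M against a lowest, median and highest of 1.51, 5.60 and 7.80 in vehicle. The Tcstv family (6 genes) summed to 13.9, 7.75, 16.8, 7.23 and 3.83 against 0, 0.119 and 0.317. Every mimic pool exceeded every vehicle pool in both families, by a small margin in replicates 1 and 3 for Usp17l. The sums cover only members in the table, where every gene has at least 10 reads in its fifth-highest library. The Tcstv members had 23 reads in the 7 vehicle pools, so they met that level only through pools that received the mimic. The family sums given here are therefore also a description. The Zscan4 family (4 genes) summed to 18.6, 38.8, 9.60, 2.07 and 9.27 against 0.257, 1.73 and 2.12, with replicate 4 inside the vehicle range. A pair of further multicopy families, chosen after their values were seen, moved alike. Alyreffm (8 genes) summed to 11.5, 35.6, 35.7, 19.6 and 28.8 against 0.555, 1.62 and 3.29. The numbered Eif1ad copies (13 genes) summed to 36.7, 17.4, 45.4, 16.5 and 27.9 against 1.94, 3.81 and 6.63, with no overlap in either.

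The levels behind these sums were low. Usp17lc stood at 30.0, 59.2, 29.6, 119 and 22.3 against 0, 0 and 7.80. Usp17lc rose by 4.74 ± 1.23 (SE) in log2 (adjusted p = 0.0466), and its call was lost without any 1 library other than vehicle replicate 3 (adjusted p up to 0.137, without 2x replicate 4). Zscan4c had no read in any vehicle pool and stood at 22.0, 10.3, 10.7, 10.3 and 3.54 in the mimic pools (adjusted p = 0.123). Zscan4f stood at 116, 149, 43.7, 0 and 25.2 against 0, 0 and 3.31 (adjusted p = 0.128). Tcstv3, also without a vehicle read, stood at 10.0, 0, 15.5, 15.5 and 9.92 (adjusted p = 0.144). In replicate 4, the shallowest pool, 1 read was worth a normalized count of 5.16. The copies are near-identical, so reads divided among them by kallisto make single members uncertain, and the table holds no gene with fewer than 10 reads in its fifth-highest library. In the Str - let7f pools the same sums spread more widely, from 0.755 to 68.3 for Usp17l (median 22.1) and from 0 to 188 for Zscan4 (median 7.56).

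Of 12 maternal genes of the oocyte tested, 2 rose, beside 1.23% of all genes that rose, with 7 members above 0 and 5 below. The 2 were Ooep and Khdc3, which encode parts of the subcortical maternal complex. Ooep stood at 250.0, 245, 406, 423 and 414 against 85.3, 132 and 214. Ooep rose by 1.32 ± 0.24 (SE) in log2 (adjusted p = 0.00422), with no overlap. Khdc3 stood at 6208, 6847, 7319, 9833 and 8436 against 3749, 5195 and 6882. Khdc3 rose by 0.58 ± 0.13 (SE) in log2 (adjusted p = 0.0231), with replicates 1 and 2 inside the vehicle range and a call lost without 2x replicates 4 and 5 (adjusted p up to 0.0891, without 2x replicate 4). Reads per M over the maternal list were 734 to 1393 in the mimic pools and 491 to 956 in vehicle.

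**Figure D4:**
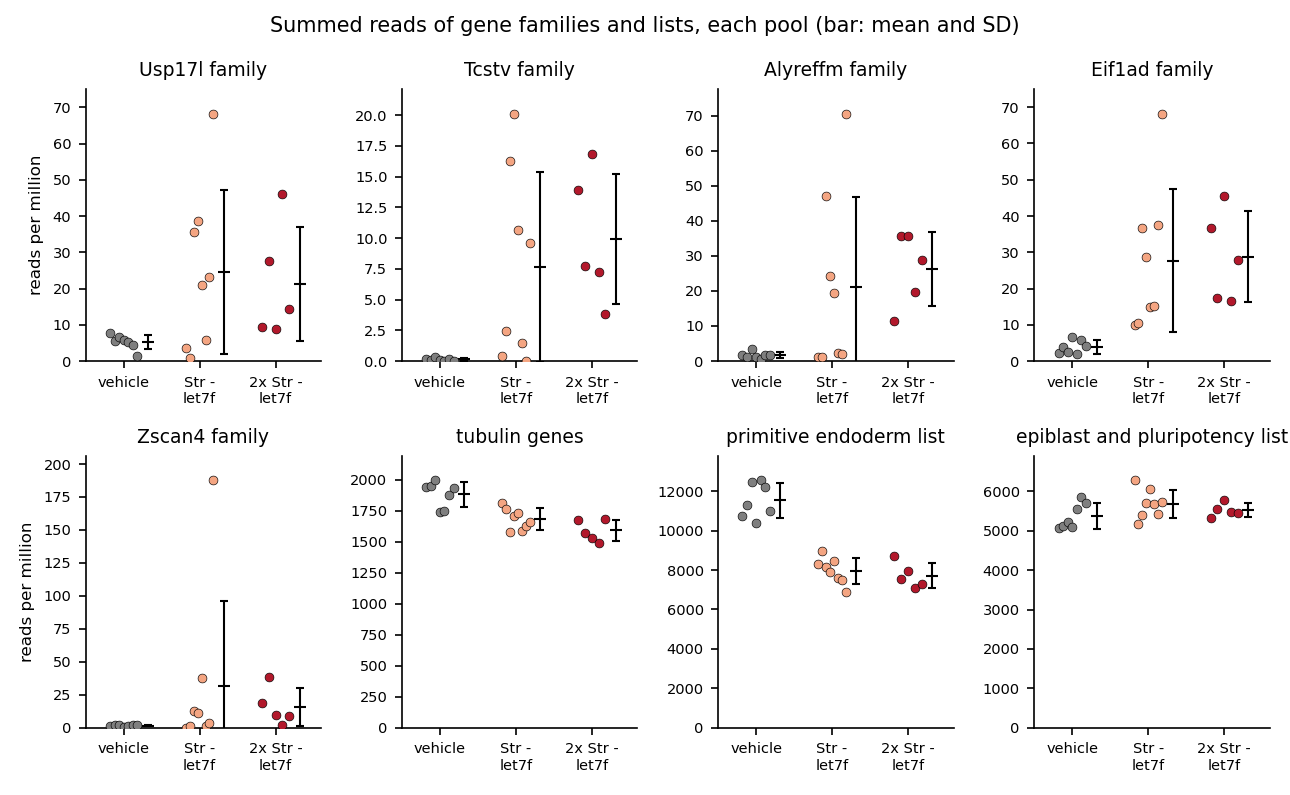
Each point is the summed reads per M (vertical axes from 0) of a gene family or list in 1 pool of vehicle (gray, 7 pools), Str - let7f (light red, 8 pools) or 2x Str - let7f (red, 5 pools); bars give mean and SD and are cut at 0. The Usp17l, Tcstv, Alyreffm and Eif1ad sums of all 2x Str - let7f pools lie above, and the tubulin and primitive endoderm sums below, all vehicle pools, while the epiblast sums overlap.

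Markers of the labelled blastocyst stage were present in every pool. Summed reads per M were 5321 to 5783 for the epiblast and pluripotency list in the mimic pools against 5062 to 5852 in vehicle, and 3367 to 4899 against 3402 to 4524 for trophectoderm transcription factors. Of 26 epiblast genes tested 1 fell, beside 0.664% of all genes that fell, with a median of -0.06. Pou5f1 differed by 0.04 (95% interval -0.41 to 0.49), Nanog by -0.02 (-0.32 to 0.28) and Sox2 by -0.29 (-0.80 to 0.22), all with overlapping pools. The gene that fell was Spry4, an inhibitor fed back by FGF and ERK signalling, at 434, 154, 112, 51.6 and 143 against 372, 411 and 509. Spry4 fell by 1.60 ± 0.41 (SE) in log2 (adjusted p = 0.0437). Its replicate 1 lay inside the vehicle range and the others far below, and the call was lost without any 1 library other than 2x replicate 1 (adjusted p up to 0.156, without 2x replicate 4). Fgf4, the ligand that epiblast cells send to primitive endoderm, stood at 236, 252, 185, 124 and 199 against 251, 280.0 and 357 without passing (-0.58, adjusted p = 0.191), as did Tfcp2l1, a factor of naive pluripotency, at 10326, 11732, 13548, 12157 and 11260.0 against 8694, 9241 and 10868 (0.30, adjusted p = 0.0851).

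Of 43 genes of DNA methylation and chromatin 1 fell and none rose, beside 0.664% of all genes that fell. It was the de novo methyltransferase Dnmt3b, at 6278, 5289, 3538, 3114 and 3719 against 6215, 7413 and 8552. Dnmt3b fell by 0.78 ± 0.19 (SE) in log2 (adjusted p = 0.0335). Replicate 1 lay inside the vehicle range, and the call was lost without any 1 library other than 2x replicates 1 and 2 or vehicle replicates 5, 7 and 8 (adjusted p up to 0.117, without 2x replicate 4). Its cofactor Dnmt3l stood at 930.0, 1060.4, 686, 687 and 642 against 1008, 1372 and 1894 without passing (-0.80, adjusted p = 0.065). Of 30 mitosis genes 2 rose, beside 1.23% of all genes that rose. Cdc25b, a phosphatase that starts mitosis, stood at 276, 535, 389, 522 and 392 against 123, 136 and 248. Cdc25b rose by 1.34 ± 0.27 (SE) in log2 (adjusted p = 0.00989). Cdc20, the activator of the anaphase-promoting complex, stood at 1774, 1714, 2031, 1968 and 1969 against 1192, 1385 and 1714. Cdc20 rose by 0.43 ± 0.10 (SE) in log2 (adjusted p = 0.0339). All mimic pools exceeded vehicle for Cdc25b, and for Cdc20 by a small margin. The Cdc20 call was lost without any 1 library other than 2x replicates 1 and 2 or vehicle replicates 1, 2 and 7 (adjusted p up to 0.0953, without 2x replicate 3).

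Several systems had no called gene by limma. Among those of growth these were 41 genes of DNA replication and S phase (median -0.19, 33 below 0 and 8 above). They also included 74 cytosolic ribosomal protein genes (-0.12, 65 below 0 and 9 above), beside 50.7% of all genes below 0. In energy metabolism they were 33 nuclear genes of oxidative phosphorylation (-0.01), 22 of glycolysis (0.00) and 24 of cholesterol synthesis (0.02). The others were 26 of insulin, IGF and mTOR signalling (-0.13), 34 of WNT and TGF-beta signalling (-0.05), 21 imprinted genes (-0.07) and 13 interferon-response genes (0.10). The unadjusted 95% interval of a single gene's log2 fold change had a median half-width of 0.70 over all genes tested. That width differed between genes, and the smallest change called was 0.26. A call asked for more than a gene's own half-width, as p-values were adjusted. Changes in these lists, also some above 0.70, could therefore be missed. Of 22 microRNA pathway genes, Lin28a fell and no other was called, beside 0.664% of all genes that fell.

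**Figure D5:**
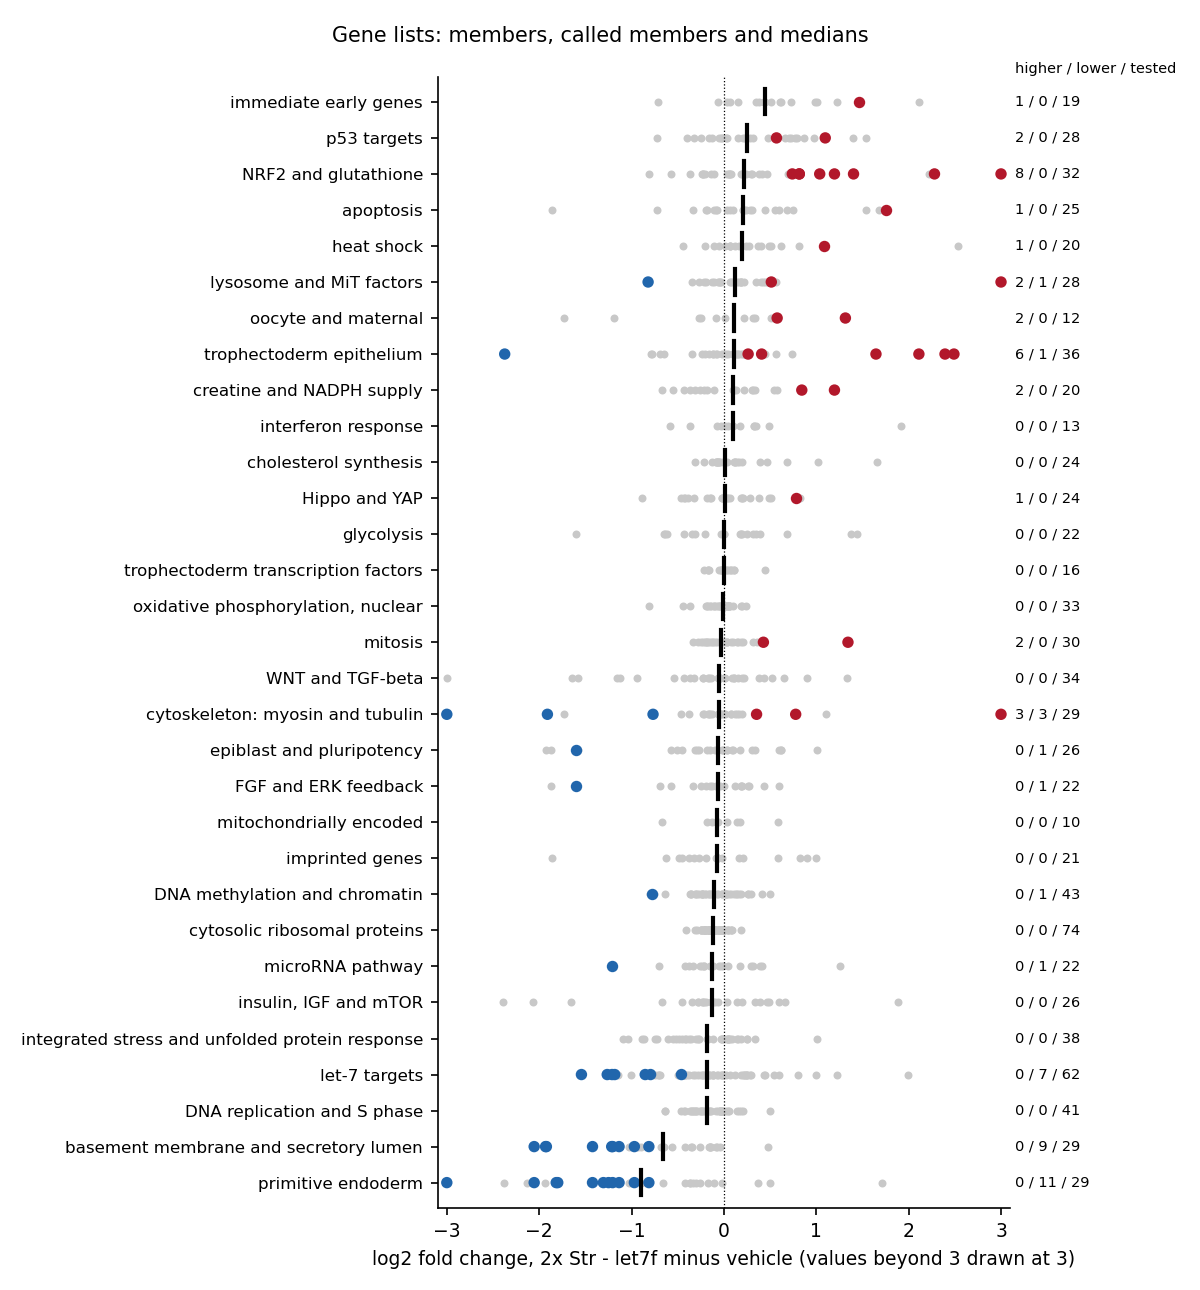
Each row is a gene list with at least 10 tested members, other than the 2-cell list; points are members at their log2 fold change of 2x Str - let7f over vehicle (red rose, blue fell, gray not called; values beyond 3 drawn at 3) and the black line is the median. Primitive endoderm and basement membrane members lie to the left with 11 and 9 falls, and the 8 rises of the NRF2 list lie beside a median of 0.22.

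Sums over markers of cells that could accompany the embryos did not follow the groups, except for the fibroblast list. Summed reads per M of 6 cumulus genes were 220.0 to 381 in the mimic pools and 237 to 332 in vehicle, of 3 sperm genes 148 to 248 and 159 to 293, and of 6 blood genes 9.30 to 13.9 and 3.05 to 32.9. The 4 fibroblast and stroma genes summed to 29.8 to 64.1 and 64.2 to 114, with all mimic pools below vehicle. Of these, Vim (vimentin) had a normalized count of 166, 118, 48.5, 377 and 86.5 against 324, 439 and 729 (-1.87, adjusted p = 0.0569), and its part in the falls above was not tested. The members did not all move alike: 3 of the 4 had a log2 fold change below 0 and 1 above, and none was called by limma. Reads on 4 Y-linked genes were 50.8 to 159 per M in the mimic pools and 56.1 to 144 in vehicle, lowest in 2x replicate 1. Lars2 took 0.769% to 2.02% of the reads of a mimic pool and 0.637% to 5.39% of a vehicle pool.

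The 5 mimic pools were not alike. Replicate 1 was the highest of the 5 for 53 of the 100 genes that fell and lay within the vehicle range for 22 of them, against 4 or 5 of them in each other pool. It was also the lowest of the 5 for 57 of the 185 genes that rose, and lay within the vehicle range for 26 of those, against 11 to 16 in the others. Replicate 4, with the fewest reads, was the lowest of the 5 for 45 of the genes that fell and the highest for 50 of those that rose. These places are a description of the genes called with the same pools. What set replicate 1 apart was not tested.

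Set directly against Str - let7f, no gene passed in 2x Str - let7f by limma (0 of 15068, 0%), with 608 genes at an unadjusted p under 0.05, 1 gene called by edgeR and 11 by DESeq2. The smallest adjusted p was 0.126, for Szrd1. The median half-width of a gene's unadjusted 95% interval in this contrast was 0.68 on the log2 scale. A call asked for more than that, as p-values were adjusted over all genes. Larger differences between the doses could therefore also be missed, and Acbd4, at -1.60, did not pass (limma, adjusted p = 0.272). Both mimic groups were set against the same 7 vehicle pools, so their lists are given side by side and not as independent evidence. Against vehicle, Str - let7f had 277 genes that rose (1.84%) and 120 that fell (0.796%). The primitive endoderm list had 13 falls there (median -0.90) and 11 in 2x Str - let7f, the let-7 target list 6 falls and 1 rise (-0.16) and 7 falls, and the NRF2 list 8 rises in each.

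For most genes above, the doses could not be told apart. The 2x Str - let7f minus Str - let7f difference was 0.23 (95% interval -0.20 to 0.66) for Lin28a, 0.01 (95% interval -0.31 to 0.33) for Trim71, -0.01 (95% interval -0.41 to 0.40) for Nid2 and 0.11 (95% interval -0.24 to 0.46) for Ppl, in intervals not adjusted for the number of genes. Against vehicle these 4 stood at -1.44, -0.80, -2.05 and 2.38 in Str - let7f. Arid3b, another let-7 target, stood further apart: its level was 93.0 to 239 in 2x Str - let7f and 192 to 528 in Str - let7f, a difference of -0.74 (95% interval -1.22 to -0.26) (adjusted p = 1), and against vehicle Str - let7f differed by -0.44 without passing (adjusted p = 0.32). Tubb3 and Tuba1a had lower values at the doubled dose by -2.07 (95% interval -3.67 to -0.47) and -1.47 (95% interval -2.39 to -0.55), with adjusted p = 1 and 1, and Rcn1 by -0.58 (95% interval -1.09 to -0.06) with adjusted p = 1.

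Of the genes nearest to a dose difference, Szrd1, Acbd4 and Cbl were not on the list of known targets. Szrd1, a small protein with an RNA-binding SUZ domain, stood at 1132, 865, 989.9, 1611 and 516 in 2x Str - let7f, against 369 to 595 in Str - let7f and 417, 554 and 691 in vehicle. It was higher than in Str - let7f by 1.11 (95% interval 0.71 to 1.52) (adjusted p = 0.126), was the 1 gene that edgeR called, and passed limma without 2x replicate 5 (adjusted p = 0.00136), the pool with its lowest value. Against vehicle it rose by 0.83 ± 0.20 (SE) (adjusted p = 0.0337), a call lost without any 1 library other than 2x replicate 5 or vehicle replicates 7 and 8 (adjusted p up to 0.123, without 2x replicate 4). Acbd4, an acyl-CoA-binding protein, stood at 52.0, 79.8, 60.7, 56.8 and 76.9 against 80.3 to 353 in Str - let7f and 91.0, 157 and 225 in vehicle, a dose difference of -1.60 (95% interval -2.25 to -0.95) (adjusted p = 0.272) that passed without Str - let7f replicate 3 (adjusted p = 0.0333). Against vehicle Acbd4 fell by 1.33 ± 0.32 (SE) in log2 (adjusted p = 0.0338), a call lost without any 1 library other than 2x replicate 2 or vehicle replicates 1, 5, 6 and 8 (adjusted p up to 0.0813, without 2x replicate 4). Cbl, a ubiquitin ligase of receptor kinases, was at 1300.1, 3129.8, 1844, 1249.8 and 1845 against 2768 to 4788, a dose difference of -0.96 (95% interval -1.37 to -0.54) (adjusted p = 0.404) that passed without 2x replicate 2 (adjusted p = 0.0367), the pool with its highest value.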

How the data were processed

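RNA was sequenced from pools of 10 blastocysts, as rRNA-depleted total RNA in stranded low-input libraries, per the labels' protocols. Per gene, the authors deposited a count normalized between libraries (unit: signal, at least 0). The submitters' processing notes name the build GRCm39 and, as tools, FastQC 0.12.1, Trimmomatic 0.39, MultiQC 1.28, kallisto 0.50.1 and DESeq2 1.48.2; how transcripts were summed to genes and the annotation are not given in the sources used here. In every library 100% of the deposited values divided into whole reads (tolerance 0.01), so whole reads and depths could be recovered for the read-based values, edgeR and DESeq2. The 1 entry without a gene name held 0.0286% to 0.0618% of a library's reads and was left out. All columns were mapped to samples. Counting floors of 3 reads cover counting error only.

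Values were taken as log2(value + 1), so fold changes of low genes are understated. Group means were fitted to all 20 libraries by limma 3.58.1 (R 4.3.3, prior variance trended) for the 15068 genes that reached 10 in 5 or more of them, and p-values were adjusted over all of these (Benjamini-Hochberg, threshold 0.05, two-sided). Intervals at 95% come from the same fit and are not adjusted. The step was tested on simulated data. Alternatives were a pseudocount of 0.5 or 5, no filter or a filter of 50, trimmed-mean or total-read scaling, only both groups in the fit, array weights, the replicate number as a block, the Y-linked level as a covariate, libraries over 5 M reads, leaving out each library, edgeR 4.0.16 and DESeq2 1.42.0.

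Sites were counted in the longest annotated 3′ UTR per gene (GENCODE M21, GRCm38, another build than the authors used): 13425 tested genes had one, 217 of them matched by an older symbol, and 1643 had none. The members and the 37 gene lists were chosen with earlier results of these data known. By rule, the text names, in each direction, the 12 called genes of smallest adjusted p and the 6 of largest change (mean of at least 50 in 1 group), leaving out pseudogenes, clone names and predicted models. The rule adds the 4 members of smallest p in each list, 24 genes of let-7 and lineage interest, and the 5 nearest to a dose difference in each direction. The rule gave 180 genes, of which the text names those that bear on its comparisons. The 20 named outside it were chosen after their values were seen: Acsl6, Zfp473, Gusb, Mcf2l, Lamc1, Lama1, Foxq1, Col4a1, Hspg2, Dsp, Jup, Krt19, Ceacam1, Srxn1, Abcc1, Ephx1, Gclc, Tuba1a, Tubb4b and Tcstv3.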

Additional observations from a re-analysis of the deposited data

Results flagged for a closer look

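In 23 of 204 groups of pools tested, over the genes named in the text, 1 pool stood apart from the rest of its group by a gap of more than 0.71 (5 mimic pools) or 0.568 (7 vehicle pools) of the group's range in normalized counts. Chance would flag about 1 in 20 such groups if values were normally distributed. Normalized counts, above all those of low genes, need not be, and genes share their pools. The number of flags is therefore a description.

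In 2x Str - let7f replicate 1 stood high for Lin28a (1252, the next highest pool 701), Ckap4 (984), Sox17 (520.0), Cdx2 (5362), Spry4 (434) and Nostrin (66.0). Replicate 4, the pool with the fewest reads, stood high for Gata6 (5464, the next 2878), Cbr2 (186) and Hspa1b (398) and low for Gata4 (149.8). Replicate 2 stood high for Dusp1 (512), and replicate 5 was the only mimic pool with reads on Brsk1 (1.06).

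In vehicle, replicate 1 stood high for Krt19 (492) and Car2 (325.5), and replicate 2 for Gpnmb (84.4), Cbr2 (3.57), Srxn1 (185) and Tubb3 (165). Replicate 3 stood high for Usp17lc (7.80) and was the only vehicle pool with reads on Zscan4f (3.31). Replicates 6, 7 and 8 stood high for Brsk1 (53.5), Ceacam1 (65.8) and Pof1b (37.0). For Lin28a, Ckap4, Gata4, Gpnmb, Pof1b, Ceacam1, Cbr2, Srxn1, Tubb3, Brsk1, Car2, Nostrin, Usp17lc, Dusp1 and Hspa1b the mimic and vehicle pools did not overlap in spite of the pool that stood apart.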

How the results depend on the processing

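Of the alternatives tried, 10 left the counts of genes that rose (185) and fell (100) within 1.5 times: 124 to 194 rose and 78 to 113 fell with other pseudocounts, filters and scalings, the Y-linked covariate, only both groups in the fit, the replicate block and edgeR. DESeq2 gave 402 and 219, array weights 403 and 244, and libraries over 5 M reads, with fewer samples, 50 and 18. Leaving out 1 library gave 96 to 173 that rose and 47 to 111 that fell. Rises moved past 1.5 times without 2x Str - let7f replicates 2 (120), 3 (103), 4 (110) and 5 (96) and vehicle replicate 3 (120), and falls without 2x Str - let7f replicates 3 (48), 4 (47) and 5 (48) and vehicle replicates 1 (65), 2 (55), 3 (56) and 6 (62). Between the doses, 0 genes passed by limma, 1 by edgeR, 11 by DESeq2 and 0 to 1 without 1 library. The causes were not tested.

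Of the 77 called genes named in the text none changed direction in any of these settings. Calls lost numbered 46 in the libraries over 5 M reads, 26 without 2x Str - let7f replicate 4, 17 with only both groups in the fit, 11 by edgeR, 5 under trimmed-mean scaling and 0 by DESeq2. Trimmed-mean and total-read scaling moved the median of all genes by -0.02 and 0.01 on the log2 scale. The primitive endoderm list had 4 falls in the deeper libraries, 7 by edgeR and 17 with array weights, and the let-7 target list 0 in the deeper libraries.

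Same-numbered mimic and vehicle pools deviated together with a correlation of 0.03 to 0.07, against -0.109 to 0.117 for pools of different number. Correlations this weak cannot decide whether same-numbered pools share a day, litter or batch, which the labels do not give. With the replicate block 164 genes rose and 113 fell, 110 and 61 of them shared with the fit without it, and 20 named calls were lost. Of the 4 mimic pools with a same-numbered vehicle pool, 1 (replicate 2) correlated best with its own number.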
